A study of Mus musculus with 2 samples.

Results

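IAPLTR2_Mm is a subfamily of the long terminal repeats (LTRs) of intracisternal A particles (IAPs), a family of mouse endogenous retroviruses, and the LTRs described here are those that lie in pairs, as the ends of a candidate provirus would. A pair was formed from consecutive measured loci of the same subfamily and strand with 1000 to 8000 bp between them, taken from left to right along each chromosome and using each locus once. The rule used positions, names and strands alone and no methylation value. It gave 215 IAPLTR2_Mm pairs, or 430 LTRs, which is 30.9% of the 1391 IAPLTR2_Mm loci and 8.96% of all 4799 loci. The member that lies upstream on the pair's strand stands for the 5′ LTR, and its partner for the 3′ LTR. No sequence was read, so it is not known that both members came from a single insertion.

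The study measured DNA methylation of IAP LTRs with HT-TREBS, a targeted bisulfite sequencing of the junctions between LTRs and their flanking genome, to compare individual LTRs between cell types. Here AB2.2 cells of strain 129, which are embryonic stem (ES) cells, are set beside Neuro2A, a neuroblastoma line from brain of strain A albino, with 1 library each; the study's somatic cells are not analysed here. The deposited level of an LTR, given here in percent, carries no read number, so the depth behind it is unknown. The reference positions are those of mm9. Starts were read as counted from 0 and are printed 1 higher, so each printed start would be 1 bp too high if the deposited names already counted from 1. Whether each insertion exists in both strains was not checked, and the levels hold no marker by which the cell type labels could be tested.

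An IAP provirus starts with LTRs of the same sequence at both ends. The 5′ LTR holds the promoter that drives transcription of the element, and the 3′ LTR supplies the signal that ends the transcript. In most mouse cells both are kept silent by CpG methylation. Many IAP copies have lost part of the protein-coding region between their LTRs, and recombination between the LTRs can leave a single, solo LTR. The distance between the members of a pair, called the gap here, is therefore used as a sign of internal deletion, although insertions inside the element or a chance pairing of solo LTRs would also change it.

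The pairs lay on all 19 numbered chromosomes (193 pairs) and on the X (20 pairs), with 2 more on unplaced sequence. There were 119 minus-strand and 96 plus-strand pairs. The median length was 453 bp at candidate 5′ LTRs and 447 bp at candidate 3′ LTRs, against 458 bp for the 961 unpaired IAPLTR2_Mm loci. The members of a pair had the same length in 79 pairs and differed by at most 50 bp in 181. They differed by over 100 bp in 8 pairs. No member was listed at a level of exactly 0.

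Gaps were short. The median gap was 1994 bp, with quartiles of 1864 and 2295 bp, and 149 pairs (69.3%) had a gap of 1700 to under 2100 bp. Smaller groups lay at 2900 to under 3300 bp (25 pairs) and at 4000 to under 4300 bp (11 pairs). Just 2 pairs had a gap of 6000 bp or more, whereas the median gap was 6366 bp for the 181 pairs of IAPLTR1_Mm and 5900 bp for the 314 pairs of IAPLTR1a_Mm. The 120 pairs of IAPLTR2a, whose median gap was 1992 bp, resembled the IAPLTR2_Mm pairs, and the 76 pairs of IAPLTR2b had a median of 3246 bp. By the gap, nearly every IAPLTR2_Mm pair therefore falls well under the spacing of the IAPLTR1_Mm pairs.

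The limits of the rule touched few loci. The smallest gap kept was 1189 bp, on the X, whose levels (5′, then 3′) were 86.9% and 90.3% in the ES library, then 74.9% and 79.4% in the Neuro2A library. The next 2 gaps, of 1721 bp on chromosome 3 and 1725 bp on chromosome 15, belonged to pairs with Neuro2A 5′ levels of 78.2% and 93.7% and 3′ levels of 66.7% and 78.7%. The next outside was a same-strand couple on the X with a gap of 685 bp, at 87.1% and 78.2% in the ES library, then 81.7% and 60.4% in the Neuro2A library, whose upstream LTR was already the 3′ member of a pair. The largest gap kept was 7498 bp, on chromosome 16, with 72.7% and 80.1% in the ES library, then 57.6% and 69.9% in the Neuro2A library. The next outside had 8299 bp, on chromosome 11, with 83.7% and 81.4%, then 60.3% and 65.9%, in the same order. A further 30 same-strand couples in the range of gaps joined an IAPLTR2_Mm LTR to an LTR of another subfamily, and 6 IAPLTR2_Mm couples lay on opposite strands; the rule left both kinds out.

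In ES cells both ends of the pairs were highly methylated, with similar spread. The median level was 84.7% at candidate 5′ LTRs (SD over loci 6.86, n = 215 loci) and 82.2% at candidate 3′ LTRs (SD 6.88). The lowest 5′ level was 54.5% and the highest 98.0%, and the 3′ levels ran from 55.0% to 91.6%. At 80% or above were 166 of the 5′ LTRs (77.2%, 95% exact interval over loci 71.0 to 82.6) and 135 of the 3′ LTRs (62.8%, 56.0 to 69.3). These intervals treat loci as independent draws and do not cover variation between cultures or sequencing error.

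In Neuro2A cells the medians of both ends were again close, but the 5′ LTRs were spread widely and the 3′ LTRs were not. The median level was 73.3% at candidate 5′ LTRs (SD 20.01) and 70.7% at candidate 3′ LTRs (SD 10.5). The 5′ levels ran from 20.8% to 98.1% with quartiles of 51.4 and 85.3%, and the 3′ levels from 39.0% to 88.7% with quartiles of 62.4 and 76.8%. Under 50% were 49 of the 5′ LTRs (22.8%, interval 17.4 to 29.0) and 12 of the 3′ LTRs (5.58%, interval 2.92 to 9.55). At 90% or above were 29 of the 5′ LTRs and 0 of the 3′ LTRs. The 5′ LTRs thus filled both tails of the distribution in this library, beyond the range of the 3′ LTRs on each side. How reads from near-identical copies were handled is not given. Whether the ends differ in how uniquely their reads could be placed was not tested. None of the 430 members was under 20% in either library.

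**Figure D1:**
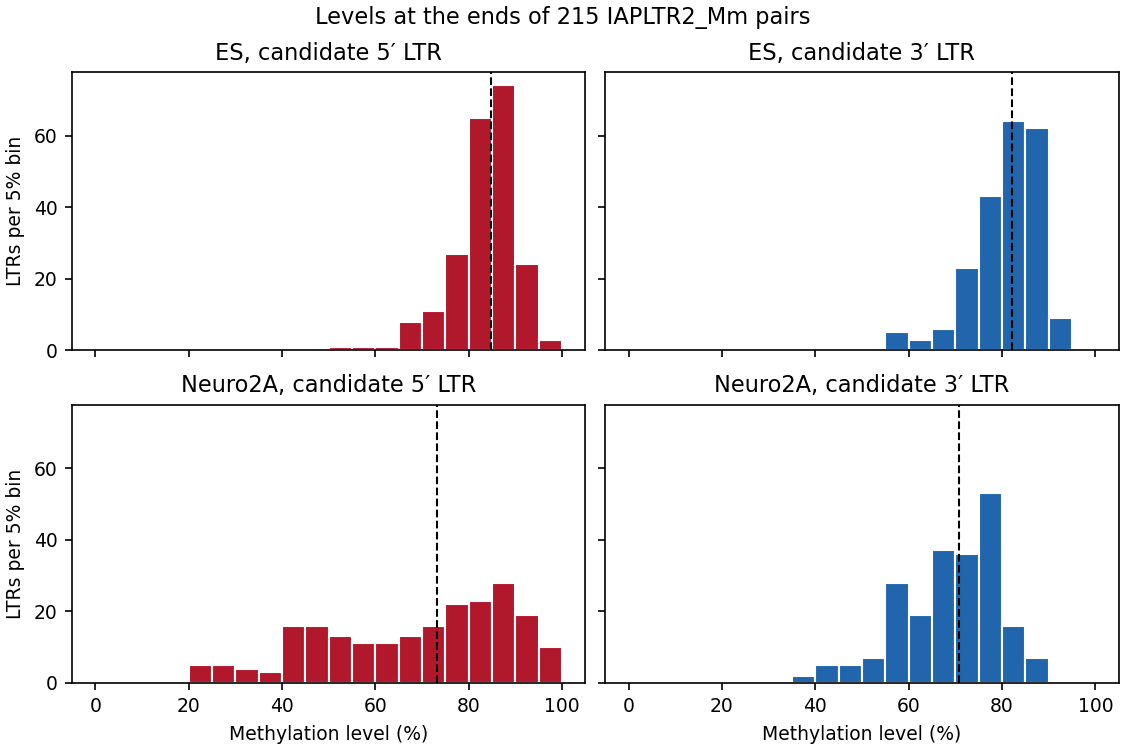
Number of LTRs (y axis, per 5% bin) by methylation level (x axis, percent) at the candidate 5′ and 3′ LTRs of the 215 pairs in each library, with the median as a dashed line. The Neuro2A 5′ levels stretch from 20.8% to 98.1%, while the other distributions are narrower.

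The wide spread at the 5′ end was present on each strand. The Neuro2A SD was 20.1 at 5′ LTRs against 10.9 at 3′ LTRs for plus-strand pairs and 19.9 against 9.97 for minus-strand pairs, so the 5′ end had the wider spread whichever side of the pair it lay on. In the 79 pairs whose LTRs had the same length, the SDs were 20.8 and 11.1. LTR length showed little relation to the level across pairs, with Spearman's rho between 0.056 and 0.12 for either end in either library (n = 215; loci of a library share its preparation, and no p is given).

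Unpaired IAPLTR2_Mm loci had a spread like that of the candidate 5′ LTRs in Neuro2A cells. Their median was 74.6% (SD 19.3, n = 961), with 158 of them (16.4%) under 50% and 130 (13.5%) at 90% or above. In ES cells their median was 82.1% with an SD of 9.53, wider than the SD at either end of the pairs. Paired IAPLTR2a and IAPLTR2b loci repeated the contrast between the ends. The Neuro2A SD was 19.6 at 5′ and 10.4 at 3′ LTRs of IAPLTR2a pairs, and 15.1 and 8.46 for IAPLTR2b. IAPLTR1_Mm pairs had 21.9 and 4.72, and IAPLTR1a_Mm pairs had a Neuro2A median of 83.3% at 5′ LTRs and 86.8% at 3′ LTRs. With 1 library per line, the differences between these groups of loci have no replicate check and were not tested.

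**Figure D2:**
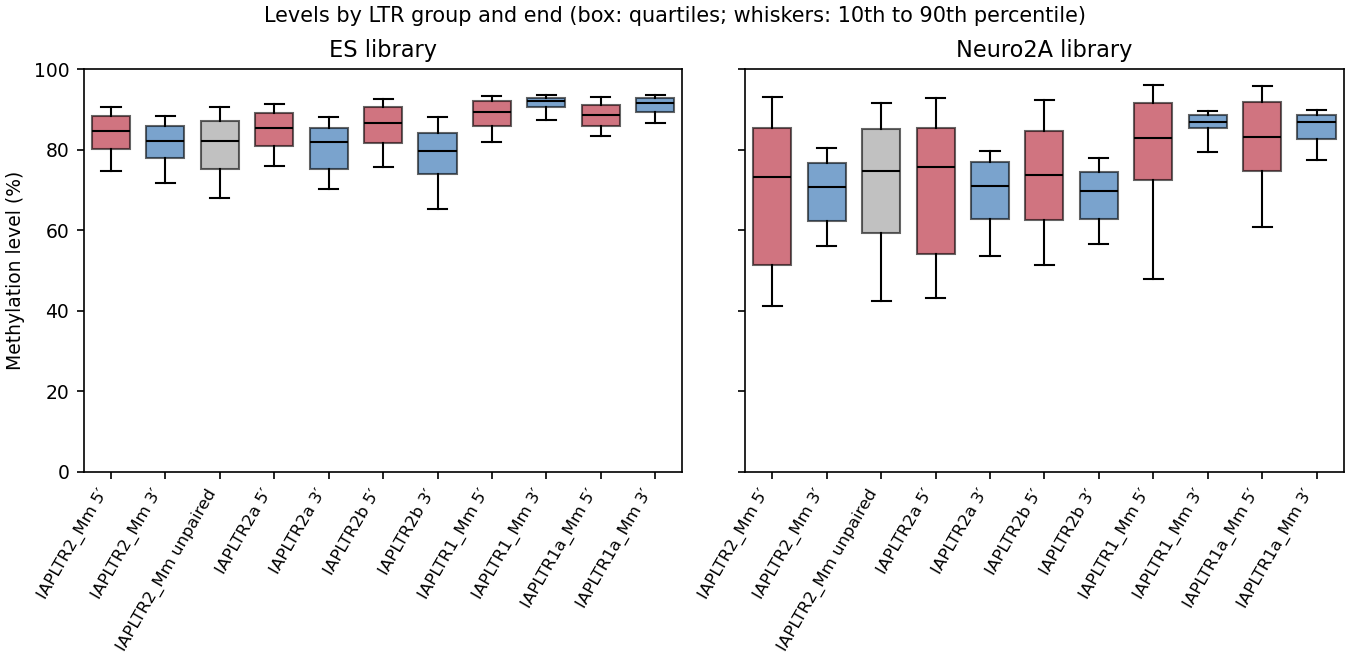
Methylation level (y axis, percent) by subfamily and end (x axis) in the ES and Neuro2A libraries. Boxes are quartiles with the median as a line, whiskers span the 10th to 90th percentile of loci, red is 5′, blue is 3′ and grey is unpaired. In Neuro2A cells the 5′ boxes are taller than the 3′ boxes beside them, and the unpaired IAPLTR2_Mm box runs from 59.4 to 85.1%.

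Within a pair, the ends of an element differed much more in Neuro2A than in ES cells. In Neuro2A cells the 5′ level was lower than the 3′ level by 20 percentage points or more in 41 pairs (19.1%, interval 14.05 to 24.97), against 14.5% of all 906 pairs of every subfamily. It was higher by 20 points or more in 29 pairs (13.5%, interval 9.22 to 18.8), against 6.95% of all pairs. In ES cells the counts were 4 pairs with the 5′ LTR lower (1.86%, against 1.55% of all pairs) and 7 with it higher (3.26%, against 2.65%). The interval of the Neuro2A share with the 5′ LTR lower holds the share over all pairs, that with the 5′ LTR higher lies above it, and both ES shares were near it. All pairs include the IAPLTR2_Mm pairs themselves. In Neuro2A cells the share with the 5′ LTR higher was much the same in IAPLTR2a (15%) and IAPLTR2b (13.2%) pairs. In the 181 IAPLTR1_Mm and 314 IAPLTR1a_Mm pairs it was 1.1% and 1.27%. The Neuro2A 3′ levels of these pairs had lower quartiles of 85.5% and 82.7%. In most of them a 5′ level 20 points higher would thus exceed the top of the percent scale. They lower the share of 6.95% over all pairs. The comparison with it therefore cannot decide whether a 5′ excess is unusually frequent in IAPLTR2_Mm pairs. The share with the 5′ LTR lower was 14.2% (IAPLTR2a), 6.58% (IAPLTR2b), 16.6% (IAPLTR1_Mm) and 12.1% (IAPLTR1a_Mm). At a limit of 10 points the order of the IAPLTR2_Mm counts in Neuro2A cells turned, with the 5′ LTR lower in 60 pairs and higher in 71.

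The median of 5′ minus 3′ was 2.9 points in Neuro2A cells (quartiles -11.9 and 13.6) and 2.4 points in ES cells (quartiles -3.3 and 8.4), so neither library had a large shift common to all pairs. In Neuro2A cells the 5′ LTR was the higher end in 120 pairs and the lower in 94, with 1 tie, and the mean, at -0.44 points (SD 20.2), had the opposite sign to the median. In ES cells the 5′ LTR was higher in 128 pairs and lower in 84, with 3 ties, and the mean was 2.67 points (SD 9.22). The ends lay within 10 points of each other in 168 pairs in ES cells and in 84 in Neuro2A cells.

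**Figure D3:**
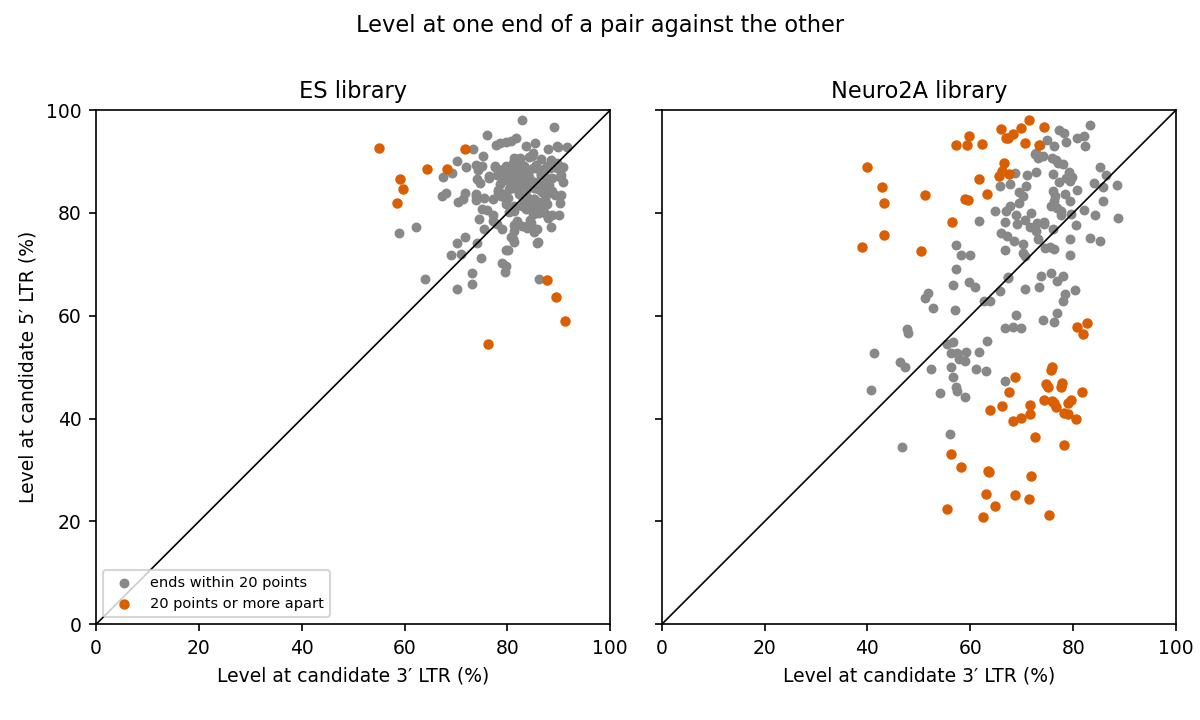
Level at the candidate 5′ LTR (y axis, percent) against the candidate 3′ LTR of the same pair (x axis, percent), 1 point per pair, with the line of equal levels; orange pairs differ by 20 points or more. In Neuro2A cells 41 orange pairs lie below the line and 29 above it, and in ES cells 4 and 7.

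Across pairs, the ends were weakly related in Neuro2A cells (Pearson's r 0.25, Spearman's rho 0.26) and hardly in ES cells (r 0.10, rho 0.069; n = 215 pairs, each a description without a p). By level in Neuro2A cells, 120 pairs had both ends at 60% or above and 25 had both under 60%. The 5′ end alone was under 60% in 48 pairs and the 3′ end alone in 22. The 3′ LTR was thus at 60% or above in 65.8% of pairs with a 5′ LTR under 60%, against 84.5% of the other pairs and 78.1% of all 215.

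The 8 pairs with the largest 3′ excess in Neuro2A cells all had gaps of 1764 to 1942 bp. Their 5′ LTRs were at 40% or less in the Neuro2A library and at 68.4 to 89.3% in the ES library. The first, on chromosome 13 (minus strand), had its 5′ LTR at 15192997 to 15193448 and its 3′ LTR at 15190716 to 15191166. Its 5′ level was 85.4% in ES and 21.3% in Neuro2A cells, while its 3′ level was 88.0% and 75.4%. The ends of this pair were 2.6 points apart in ES cells and 54.1 points apart in Neuro2A cells.

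A plus-strand pair on the X followed, with a 5′ LTR at 128751588 to 128752013 that had 79.5% in ES and 24.4% in Neuro2A cells. Its 3′ LTR, at 128753865 to 128754290, had 87.7% and 71.5%. On chromosome 14 (minus strand), the 5′ LTR at 109049007 to 109049423 had 81.6% and 25.1%, and its 3′ partner at 109046821 to 109047220 had 85.7% and 68.6%. In each of these pairs the 3′ LTR was at 68.6% or above in Neuro2A cells.

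Chromosome 12 held 2 of the 8 pairs, on opposite strands and 98511 bp apart. In the plus-strand pair, the 5′ LTR at 66784278 to 66784650 had 81.7% in ES and 20.8% in Neuro2A cells, the lowest level of any member, and the 3′ LTR at 66786518 to 66786946 had 79.8% and 62.5%. In the minus-strand pair, the 5′ LTR at 66887811 to 66888278 had 84.9% and 34.9%, and the 3′ LTR at 66885458 to 66885925 had 85.2% and 78.3%. The remaining 5′ LTRs of the 8 lay on chromosome 2 (107889417 to 107889892, 87.7% in ES and 28.8% in Neuro2A cells), chromosome 8 (102546173 to 102546647, 68.4% and 23.0%) and chromosome 1 (104046181 to 104046675, 89.3% and 40%). Of these, the one on chromosome 8 also had the lowest ES level of the 8, with its 3′ partner at 73.1%.

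The 5 pairs with the largest 5′ excess in Neuro2A cells had low 3′ LTRs, of which several were low in ES cells also. On chromosome 18 (minus strand) the 3′ LTR at 19585994 to 19586466 had 89.8% in ES and 39.9% in Neuro2A cells, and its 5′ partner at 19589004 to 19589474 had 92.8% and 88.9%. That 3′ LTR had the largest difference between the lines of any candidate 3′ LTR, at 49.9 points. On chromosome 12 (plus strand) a 3′ LTR of 129 bp at 4796882 to 4797010, the shortest member, had 59.6% and 42.9%, against 84.7% and 85.1% at the 461 bp 5′ LTR. On chromosome 17 (minus strand) the 3′ LTR at 83149249 to 83149701 had 55.0% and 43.2%, against 92.6% and 82.0% at its 5′ partner. The other 2 pairs, on chromosome 17 (3′ LTR at 27487918 to 27488321) and chromosome 14 (3′ LTR at 106752015 to 106752447), had 3′ levels of 67.4 and 79.8% in the ES library, against 57.2 and 59.8% in the Neuro2A library.

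Pairs far apart in ES cells were few. The chromosome 17 pair with its 3′ LTR at 83149249 to 83149701 had the largest 5′ excess there, at 37.6 points. A minus-strand pair on chromosome 13, with a 5′ LTR at 76637574 to 76638065 at 86.5% and a 3′ LTR at 76633362 to 76633813 at 59.2% in ES cells, had 73.3% and 39.0% in Neuro2A cells, so its 3′ LTR had the lowest Neuro2A level of any 3′ member. The largest 3′ excess in ES cells was on chromosome 19 (minus strand), where the 5′ LTR at 20534442 to 20534918 had 59.0% against 79.0% in Neuro2A cells, and the 3′ LTR at 20529961 to 20530437 had 91.2% and 88.7%. On chromosome 6 a minus-strand pair with a 5′ LTR at 44092169 to 44092577 had 63.7% and 89.5% (5′, then 3′) in the ES library, then 50.1% and 56.3% in the Neuro2A library. On chromosome 11 the pair with a 5′ LTR at 8986996 to 8987398 had 54.5% and 76.2%, then 46.1% and 75.2%, in that order.

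The sign of the end difference was the same in both lines in 146 pairs and opposite in 65, and in 4 it was 0 in a line. Across pairs the difference in ES cells was related to that in Neuro2A cells (r 0.46, rho 0.46, n = 215). Of the 29 pairs with a 5′ excess of 20 points or more in Neuro2A cells, 26 also had the higher level at the 5′ end in ES cells, and 5 of them by 20 points or more. Of the 41 with a 3′ excess of 20 points or more, 29 had the higher level at the 3′ end in ES cells and 11 at the 5′ end, with the ends within 10 points in 38. A small difference in ES cells was common to the pairs, with the ends within 10 points in 168 of all 215. A 3′ excess of 20 points or more in both lines was found in 2 pairs.

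**Figure D4:**
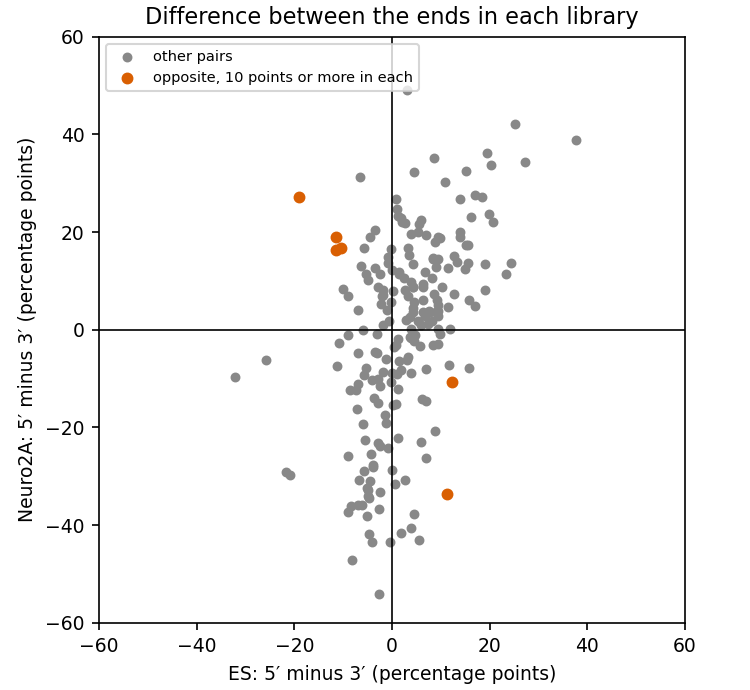
Difference between the ends (5′ minus 3′, percentage points) in Neuro2A cells (y axis) against ES cells (x axis), 1 point per pair. The Neuro2A axis is filled from -54.1 to 49.0 while most pairs lie within 10 points on the ES axis, and orange marks 6 pairs with opposite differences of 10 points or more in each library.

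Between the lines, most members had the higher level in ES cells, and the difference in level varied more at the 5′ end. At candidate 5′ LTRs the median of ES minus Neuro2A was 12 points (quartiles -0.050 and 28.6), with ES the higher at 160 LTRs and the lower at 54. At candidate 3′ LTRs the median was 10.2 points (quartiles 5.5 and 17.9), with ES the higher at 204 and the lower at 10. The ES level was higher by 20 points or more at 81 of the 5′ LTRs (37.7%, interval 31.2 to 44.5) and 39 of the 3′ LTRs (18.1%, interval 13.2 to 24.0). Over all 906 pairs the shares were 25.5% at 5′ LTRs and 7.17% at 3′ LTRs. In the same order they were 35% and 15% in IAPLTR2a pairs and 30.3% and 7.89% in IAPLTR2b pairs. They were 19.9% and 0% in IAPLTR1_Mm pairs and 15.6% and 0.637% in IAPLTR1a_Mm pairs. Over both ends of the IAPLTR2_Mm pairs the share was 27.9%, against 14.9% of all 4799 loci and 23.2% of unpaired IAPLTR2_Mm loci. Centring each library on its median over all loci removes 6.1 points, which leaves medians of 5.9 points at 5′ and 4.1 points at 3′ LTRs and counts of 64 and 19.

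The reverse, a Neuro2A level higher by 20 points or more, occurred at 3 of the 5′ LTRs (1.40%, against 0.773% over all 906 pairs) and at 0 of the 3′ LTRs, as in all pairs. Together these are 0.698% of the 430 members, against 1.58% of all loci and 4.16% of unpaired IAPLTR2_Mm loci. The 5′ LTR on chromosome 5 at 7465587 to 7466016 (plus strand) had 67.2% in ES and 94.6% in Neuro2A cells, while its 3′ partner at 7467800 to 7468229 had 86.2% and 67.4%. The 5′ LTR on chromosome 11 at 44197810 to 44198268 (plus strand) had 74.2% and 96.1%, and the chromosome 19 LTR given above had 59.0% and 79.0%. The levels of the lines were related across loci at each end, with rho of 0.38 at 5′ LTRs and 0.45 at 3′ LTRs (r 0.34 and 0.54, n = 215).

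By the mean of both ends in Neuro2A cells, all pairs were at 38.95% or above. The lowest, on chromosome 7 (plus strand, 5′ LTR at 76740324 to 76740723, 3′ LTR at 76742586 to 76742985), had 22.5% and 55.4% in Neuro2A cells and 65.2% and 70.2% in ES cells. Of the next pairs not given above, a plus-strand pair on chromosome 18 (5′ LTR at 23397219 to 23397775) had 34.4% and 46.7% against 70.3% and 78.9%, and a plus-strand pair on chromosome 14 (5′ LTR at 114077330 to 114077770) had 45.6% and 40.7% against 76.0% and 58.9%. At the other end of the range, a minus-strand pair on chromosome 5 (5′ LTR at 7754072 to 7754493) had 97.0% and 83.3% in Neuro2A cells and lower levels, 80.4% and 81.3%, in ES cells. Pairs on chromosome 10 (5′ LTR at 14332972 to 14333573, minus strand) and chromosome 8 (5′ LTR at 77112097 to 77112527, minus strand) followed, with 95% and 82.2%, and 93.1% and 82.4%, in Neuro2A cells.

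The gap was related to the 5′ level in Neuro2A cells. Of the 111 pairs with a gap of 1000 to under 2000 bp, 40 (36.0%) had a 5′ LTR under 50% in Neuro2A cells, against 8 of 71 (11.3%) at 2000 to under 3000 bp, 1 of 20 at 3000 to under 4000 bp and 0 of 11 at 4000 to under 5000 bp. The median Neuro2A 5′ level was 64.8%, 74.5%, 83.4% and 79.6% in these classes, in that order, and its SD over loci was 21.7, 17.6, 12.5 and 11.0. At the 3′ LTRs the Neuro2A medians were 71.4%, 68.9%, 67.8% and 78.2%. The low 5′ levels were thus concentrated among the pairs with the shortest gaps, while high 5′ levels occurred in every class.

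In ES cells the classes differed at the other end. The median 3′ level was 84.1%, 79.8%, 75.8% and 84.1% over the same 4 classes, whereas the median 5′ level was 84.4%, 84.8%, 86.9% and 86.8%. The median of 5′ minus 3′ was -0.90, 4.3, 8.95 and 1.3 points in ES cells and -1.8, 5.1, 13.2 and 1.8 points in Neuro2A cells. Among the 20 pairs with gaps of 3000 to under 4000 bp, the 5′ LTR was the higher end in ES cells in 18, against 51 of 111 under 2000 bp. The order from short to long gaps held over the first 3 classes in both libraries and not in the fourth, which has 11 pairs.

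A 3′ excess of 20 points or more in Neuro2A cells was found in 29.7% of pairs with gaps under 2000 bp (33 pairs), in 9.86% at 2000 to under 3000 bp (7 pairs), in 1 pair at 3000 to under 4000 bp and in 0 beyond. A 5′ excess of that size was found in 10.8%, 15.5%, 25% and 9.09% of the 4 classes (12, 11, 5 and 1 pairs). Counts of 5′ LTRs at least 20 points higher in ES than in Neuro2A cells were 56 of 111, 22 of 71, 2 of 20 and 1 of 11 over the classes.

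Over all 215 pairs, Spearman's rho with the gap was 0.30 for the Neuro2A 5′ level and 0.0057 for the Neuro2A 3′ level, and 0.18 and -0.24 for the ES levels at the 5′ and 3′ end. For 5′ minus 3′, rho was 0.28 in Neuro2A and 0.36 in ES cells. Without the 13 pairs at 4000 bp or more, the values were 0.28 for the Neuro2A 5′ level, -0.32 for the ES 3′ level, and 0.30 and 0.44 for the end differences. Within the pairs under 2000 bp, rho for the Neuro2A 5′ level was 0.11 (n = 111), and it was 0.28 in the 104 pairs at or above 2000 bp. For the ES 3′ level the values on either side of 2000 bp were -0.075 and -0.016, so that relation was hardly present within either part. For 5′ minus 3′ they were 0.14 and 0.13 in Neuro2A and 0.29 and 0.085 in ES cells. Pearson's r over all pairs was lower, at 0.24 for the Neuro2A 5′ level and 0.094 for the ES end difference. These are descriptions over loci that share a library.

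**Figure D5:**
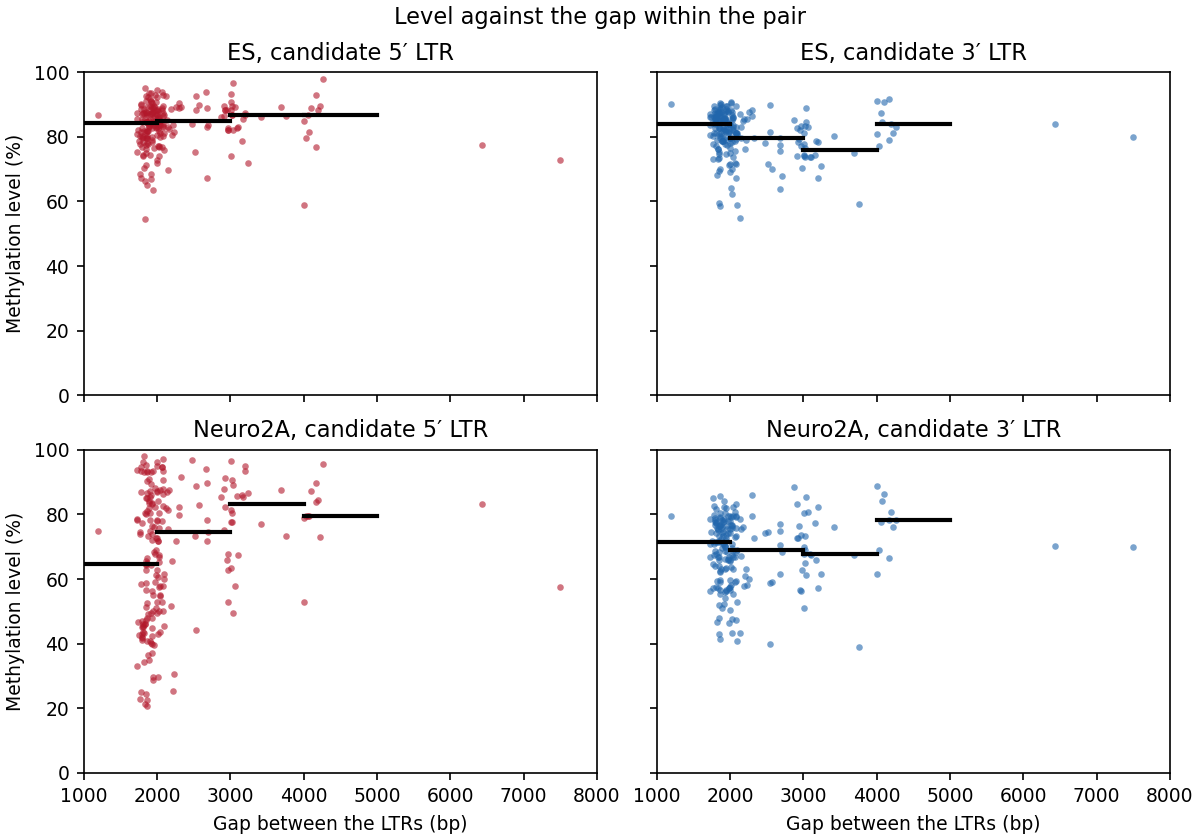
Methylation level (y axis, percent) against the gap between the LTRs of a pair (x axis, bp) for each end and library, 1 point per pair, with class medians as black bars for 1000 bp classes below 5000 bp. The Neuro2A 5′ medians are 64.8, 74.5, 83.4 and 79.6%, and the ES 3′ medians 84.1, 79.8, 75.8 and 84.1%.

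With the wider classes, 202 pairs were short (under 4000 bp), 11 middle (4000 to under 6000 bp) and 2 long (6000 to 8000 bp), so these classes separate few pairs. The middle class had Neuro2A medians of 79.6% at 5′ and 78.2% at 3′ LTRs, against 72.7% and 70.4% in the short class. The long pairs were that on chromosome 16 given above and a plus-strand pair on chromosome 1 (gap 6430 bp, 5′ LTR at 146231180 to 146231617), with 77.5% and 83.9% in the ES library, then 83.3% and 70.2% in the Neuro2A library. The third-longest gap, 4266 bp on chromosome 6 (minus strand, 5′ LTR at 23843837 to 23844266), belonged to the pair with the highest ES level of any member, 98.0% at the 5′ LTR, which was at 95.5% in Neuro2A cells. The pair at the median gap, on chromosome 11 (plus strand, 5′ LTR at 31674153 to 31674649), had 87.2% and 76.4%, then 96.3% and 66.0%, in that order.

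The other IAPLTR2 pairs showed part of this relation. In IAPLTR2a pairs, 29.2% of 65 5′ LTRs at gaps under 2000 bp were under 50% in Neuro2A cells, against 12.5% of 40 at 2000 to under 3000 bp, and the median 5′ level went from 70.2 to 78.1%. In IAPLTR2b pairs the shares were 33.3% of 15 and 10.5% of 19. At 3000 to under 4000 bp the median Neuro2A 5′ level was 70.3% in 12 IAPLTR2a pairs and 71.95% in 22 IAPLTR2b pairs, below the 83.4% of IAPLTR2_Mm. The shares under 50% there were 16.7% in IAPLTR2a and 0% in IAPLTR2b pairs. A 3′ excess of 20 points or more was found in 25% and 4.55% of them, against 2.5% and 0% at 2000 to under 3000 bp. In IAPLTR2a pairs the relation thus did not continue into this class. The difference of these relations between subfamilies was not tested.

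On the X, the 20 pairs had a median Neuro2A level of 66.6% at 5′ LTRs (SD 17.5) and 74.3% at 3′ LTRs (SD 7.44), against 74.5% (SD 20.3) and 70.2% (SD 10.8) for the 193 autosomal pairs. In ES cells the medians were 84.7% and 83.2% on the X and 84.7% and 81.8% on autosomes. Of the X pairs, 0 had a 5′ LTR at 90% or above in Neuro2A cells and 0 a 5′ excess of 20 points, each against 29 of 193 autosomal pairs (15%). A 3′ excess of that size was found in 5 X pairs (25%) and 36 autosomal pairs (18.7%), and with 20 pairs these shares are imprecise. The median gap was 1954 bp on the X and 2001 bp on autosomes.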

How the data were processed

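Per the file headers, the deposited score of an LTR is its methylation level times 1000; division by 10 gave percent. The headers also name the build, mm9. The submitters' processing notes list Bowtie2, with no role or version. How levels were called, which reads were kept and how near-identical copies were handled is "not given in the sources used here". Both libraries listed the same 4799 loci. Subfamily, strand and position (starts read as 0-based, which the files do not state) came from each locus name; for 1 locus, no member, the ES position columns differed from the name, which was used.

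Members, lists and comparisons were chosen with earlier results of these data known. With 1 library per line no p-value was computed, and SDs run over loci. Differences of 20 points or more were counted, and intervals are exact Clopper-Pearson at 95%. The pairs named are those at the extremes of end difference (8 and 5 in Neuro2A cells, 3 each way in ES cells), pair mean, line difference and gap, and the pair at the median gap. Alternatives varied the limit, gap range and classes, strand, length match, chromosomes, spacing, centring and the mean; the correlations within subsets (equal length, autosomes, X, gaps under 4000 bp and on either side of 2000 bp) and 1 pair per layout were added after seeing the data. Python 3.11.15, pandas 2.3.3, NumPy 2.4.6, SciPy 1.17.1 and Matplotlib 3.10.9 were used. The counting was tested on simulated levels with planted Neuro2A decreases at 5′ LTRs and far less spread than the real levels. That test could not check the assignment of the ends or the counts of a 5′ excess. No mm9 sequence was used.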

Additional observations from a re-analysis of the deposited data

Results flagged for a closer look

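In 6 of the 215 pairs the ends differed by 10 points or more in each library, in opposite directions, which was not tested since each line has 1 library. The share over pairs of every subfamily is not given here, so whether such pairs are unusual is not known. The 5′ LTR was the higher end in Neuro2A and the lower in ES cells in 4 of the 6. On chromosome 5 (5′ LTR at 7465587 to 7466016, plus strand) 5′ minus 3′ was 27.2 points in Neuro2A and -19.0 in ES cells. It was 18.9 and -11.5 points on chromosome 11 (44197810 to 44198268, plus strand), 16.7 and -10.4 points on chromosome 1 (81979139 to 81979542, plus strand), and 16.3 and -11.5 points on the X (154599760 to 154600256, minus strand). The reverse held in 2 pairs. On the X (121294842 to 121295293, minus strand) the 5′ LTR was at 85.9% in ES and 29.8% in Neuro2A cells, with 5′ minus 3′ at 11.3 and -33.6 points. On chromosome 4 (39975761 to 39976203, minus strand) 5′ minus 3′ was 12.2 points in ES and -10.6 in Neuro2A cells. The gaps of the 6 pairs ran from 1783 to 2075 bp.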

How the results depend on the processing

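No paired analysis was possible because neither line has a second library. Depth per LTR is unknown, so sequencing error is in no interval here, and variation between cultures was not measured. Of the values recomputed, 178 moved by less than their interval or within 1.5 times, 47 moved further and 15 had another sign. Those restricted to autosomes, to the first pair in each 1 Mb window (197 pairs), to the 214 pairs under 7000 bp or to 1 pair per layout (added after seeing the data) all stayed within that limit. A setting that left out levels of exactly 0 removed no pair. Its values are counted among the 178 but could not move.

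By the mean, ES levels were 83.6% (5′) and 81.0% (3′), ES minus Neuro2A at 3′ LTRs was 12.0033 points, the Neuro2A end difference was -0.44 points, and its middle minus short contrast was 3.98 points. At a limit of 10 points, 5′ excess was found in 71 (Neuro2A) and 36 (ES) pairs and 3′ excess in 60 (Neuro2A) and 11 (ES), with a Neuro2A excess at 11 5′ LTRs and an ES excess at 109 3′ LTRs. At 40 points, 5′ excess in Neuro2A cells was found in 2 pairs and 3′ excess in 8, with 0 and 0 in ES cells; an ES excess was found at 22 5′ and 1 3′ LTRs and a Neuro2A excess at 0 5′ LTRs. With LTR lengths within 50 bp, 4 pairs had a 5′ excess in ES cells.

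Strand subsets hold fewer pairs, 96 on the plus and 119 on the minus strand. Counts were not scaled to these numbers, so a count can move only because its subset is smaller. On the plus strand the Neuro2A 3′ level was 68.1%, ES minus Neuro2A at 5′ LTRs was 16.2 points, and the ES end-difference contrast of middle minus short gaps was 2.1 points; 5′ and 3′ excess in Neuro2A cells counted 13 and 19, 3′ excess in ES cells 0, and ES excess 43 (5′) and 22 (3′). On the minus strand 5′ and 3′ excess in Neuro2A cells counted 16 and 22, 5′ excess in ES cells 2, ES excess 38 (5′) and 17 (3′), and Neuro2A excess 1 (5′).

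In the 33 pairs with gaps of 3000 to 8000 bp, levels were 81.4% (Neuro2A 5′), 86.8% (ES 5′) and 80.1% (ES 3′). End differences were 8.8 (Neuro2A) and 5.9 (ES) points, and line differences 3.2 (5′) and 6.5 (3′) points. Counts were 6 (5′) and 1 (3′) for end excess in Neuro2A cells, 1 and 1 in ES cells, 3 (5′) and 4 (3′) for ES excess and 1 (5′) for Neuro2A excess. Centring (6.1 points) gave line differences of 5.9 (5′) and 4.1 (3′) points, a Neuro2A excess at 6 5′ LTRs and an ES excess at 19 3′ LTRs.

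The contrast of middle with short gaps (Neuro2A 3′ 7.8, ES 3′ 2.05, end differences -1.45 in Neuro2A and -1.4 in ES cells) rests on 11 pairs. Other contrasts of longer with shorter gaps, which mostly divide the short class, had the other sign. In that order they were -1.7, -4.6, 14.25 and 8.0 points for the 71 pairs of longest gap against the 72 of shortest gap. They were -3.65, -8.3, 15 and 9.85 points for 3000 to under 4000 against under 2000 bp, and -2.5, -4.3, 6.9 and 5.2 points for 2000 to under 3000 against under 2000 bp. The Neuro2A 5′ contrasts had the same sign, at 6.9, 16.7, 18.55 and 9.7 points. The cause of these differences was not tested.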

Other observations

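Chromosome 7 was picked out after the values were seen. Its 15 pairs had a median Neuro2A level of 50% at 5′ LTRs and 76.8% at 3′ LTRs, against 76.1% and 69.7% for the 178 pairs on the other autosomes. The ES medians at 5′ LTRs were 80.1% and 84.9%. Under 50% at the 5′ end were 7 of the 15 pairs and 38 of the 178, and gaps under 2000 bp were found in 8 and 88 of them.

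On that chromosome 3 minus-strand pairs had the same layout, with a gap of 1790 bp and LTRs of 466 bp at both ends. Their 5′ LTRs, which start at 22164901, 22647898 and 23871087, had 46.9%, 41.0% and 43.1% in Neuro2A cells, and their 3′ LTRs had 77.8%, 78.3% and 79.0%. The ES levels were 82.8%, 79.6% and 77.0% at the 5′ end and 87.3%, 88.6% and 83.9% at the 3′ end. A pair on the X and a pair on unplaced X sequence also shared a layout (gap 1850 bp, LTRs of 412 bp), with 5′ levels of 62.8% and 64.8% in Neuro2A and 87.5% and 76.2% in ES cells. Whether reads from copies this alike could be told apart was not tested.

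In 28 couples of consecutive pairs within 1 Mb, the 5′ levels in Neuro2A cells differed by a median of 14.2 points, the 3′ levels by 6.4 points, and the 5′ levels in ES cells by 5.1 points. In 3 couples both 5′ LTRs were under 50% in Neuro2A cells, in 5 both were at 80% or above, and in 2 couples 1 was under 50% and the other at 80% or above. The couples under 50% on chromosome 7 shared the pair with a 5′ LTR from 22164901. No such values are given here for pairs further apart, so whether neighbours were more alike was not tested. On chromosome 8, in a couple chosen after its values were seen, pairs 668946 bp apart had 5′ levels of 45.1% (5′ LTR from 64822403) and 96.5% (from 65497477) in Neuro2A cells, with 3′ levels of 67.6% and 69.8%.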
